A study of Mus musculus with 34 samples.

Results

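The suppressor of cytokine signalling (SOCS) genes Socs1, Socs2, Socs3, Socs5, Socs6, Socs7 and Cish and the transcription factor genes Stat3, Stat5a and Stat5b were followed, 10 of the 23951 genes with an FPKM value in every sample. They were picked by symbol, and the family was chosen from its values in GFAP+ nuclei, where Socs2 was higher in Hdac1 cKO mice, so the levels in those nuclei are given as a description with no test. Hippocampal RNA came from 4 control mice (Hdac1f/f), 5 Hdac1 cKO mice (Hdac1f/f, Nestin-Cre), 6 5XFAD mice (Hdac1f/f, 5XFAD) and 5 compound transgenic mice (Hdac1f/f, Nestin-Cre, 5XFAD). GFAP+ nuclei had been sorted from cortical tissue of 13-month-old mice, 3 of them controls and 4 Hdac1 cKO. All of these mice, controls included, carried the floxed Hdac1 alleles. Nestin-Cre is expressed in the neural lineage and deletes Hdac1 in neurons and astrocytes, while microglia keep it. The 5XFAD transgenes, a mouse model of Alzheimer's disease, are driven by the neuronal Thy1 promoter. The age is labelled as 13 to 14 months for the control and Hdac1 cKO hippocampi and as 13 months for both 5XFAD groups, and only the latter are labelled as total RNA. The 9 mice without 5XFAD and the 11 mice with it therefore differ in how they were labelled, and any difference in handling that goes with the labels cannot be told apart from the transgenes.

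Cytokines such as interleukin-6, leukaemia inhibitory factor, growth hormone and prolactin act through receptors that activate Janus kinases (JAKs), which phosphorylate STAT proteins. Phosphorylated STAT dimers enter the nucleus and switch on target genes, among them SOCS genes, whose proteins then bind receptors or kinases and shut the signal down. In the brain STAT3 is known for its part in reactive astrogliosis, and SOCS2 for restraining growth hormone signalling. CISH and SOCS2 are textbook products of STAT5 signalling and SOCS3 of STAT3 signalling.

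STAT dimers bind a palindrome, and promoters of the members were searched for TTCNNNGAA, which reads the same on both strands. RefSeq promoter windows on GRCm38.p6, from 250 bases before to 50 bases after a start site, were matched for 6 of the 10 members (Socs1, Socs3, Cish, Stat3, Stat5a and Stat5b). Of 8 windows, those of Cish and Socs3 held the motif. They are printed because these were the members with a match, with the matches in capitals and the other bases in lower case, 5′ to 3′ along the gene.
Cish, chr9:107296579-107296678 (+): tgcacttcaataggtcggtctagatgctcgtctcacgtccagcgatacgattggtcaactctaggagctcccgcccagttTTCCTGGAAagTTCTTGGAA
Socs3, chr11:117969467-117969565 (−): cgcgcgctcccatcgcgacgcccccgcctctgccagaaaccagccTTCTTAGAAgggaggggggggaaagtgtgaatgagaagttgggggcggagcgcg
Cish held 2 matches, beginning at bases 1 and 12 counted from the start site, and Socs3 held 1, beginning 154 bases before it. At least 1 match was present in 8.30% of all 32851 windows and at least 2 matches in 0.457% of them. A match is a description of the letters and does not show that a factor binds there.

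In GFAP+ nuclei, Socs2 and Cish were the members that differed between Hdac1 cKO mice and controls without overlap, and both were higher in the Hdac1 cKO mice. Socs2, which encodes an inhibitor of growth hormone receptor signalling, lies on chr10:94847996-94879814 (minus strand, mm9). Its level was 3.25, 5.82 and 4.27 FPKM in the 3 controls and 36.8, 26.4, 43.7 and 49.5 FPKM in the 4 Hdac1 cKO mice. Each Hdac1 cKO library was above each control, and the ratio of the group means was 8.79. Cish, which encodes an inhibitor that acts at cytokine receptors using STAT5, lies on chr9:107198357-107205115 (plus strand, mm9). It was at 0.373, 1.61 and 1.29 FPKM in the controls and at 6.35, 4.21, 3.56 and 5.22 FPKM in the Hdac1 cKO mice. These groups did not overlap either, and the ratio of the means was 4.44. On the log2(FPKM + 1) scale, which understates the change of low genes, Hdac1 cKO minus control was 2.87 for Socs2 (pooled SD between mice 0.37) and 1.51 for Cish (pooled SD 0.39). Among 15070 genes that averaged 0.5 FPKM or more in these nuclei, Socs2 had the 43rd and Cish the 132nd highest difference.

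All 10 members passed that filter, 2 of them were at least 1.5-fold higher in Hdac1 cKO mice with the groups apart, and none was lower by the same rule. Over all genes the rule took 0.730% as higher and 0.836% as lower, and since these nuclei chose the family nothing is read from the count. The other 8 members overlapped between the groups. Socs3, the inhibitor of gp130 receptors that STAT3 induces, was at 0.676 to 2.05 FPKM in controls and 1.11 to 4.55 FPKM in Hdac1 cKO mice, a difference of 0.38 on the log2 scale that ranged from 0.053 without Hdac1 cKO mouse 4 to 0.61 without control 3. Socs1, an inhibitor of JAK kinases and interferon signalling, was at 4.00 to 16.5 FPKM in controls and 3.12 to 9.28 FPKM in Hdac1 cKO mice (difference -0.43, from -0.95 without control 4 to -0.044 without control 3). Among the broader SOCS proteins, the differences were -0.05 for Socs5, 0.16 for Socs6 and 0.22 for Socs7. For the transcription factors the difference was -0.18 for Stat3, 0.23 for Stat5a and -0.23 for Stat5b, so the mRNA of no STAT gene here set the groups apart.

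**Figure D1:**
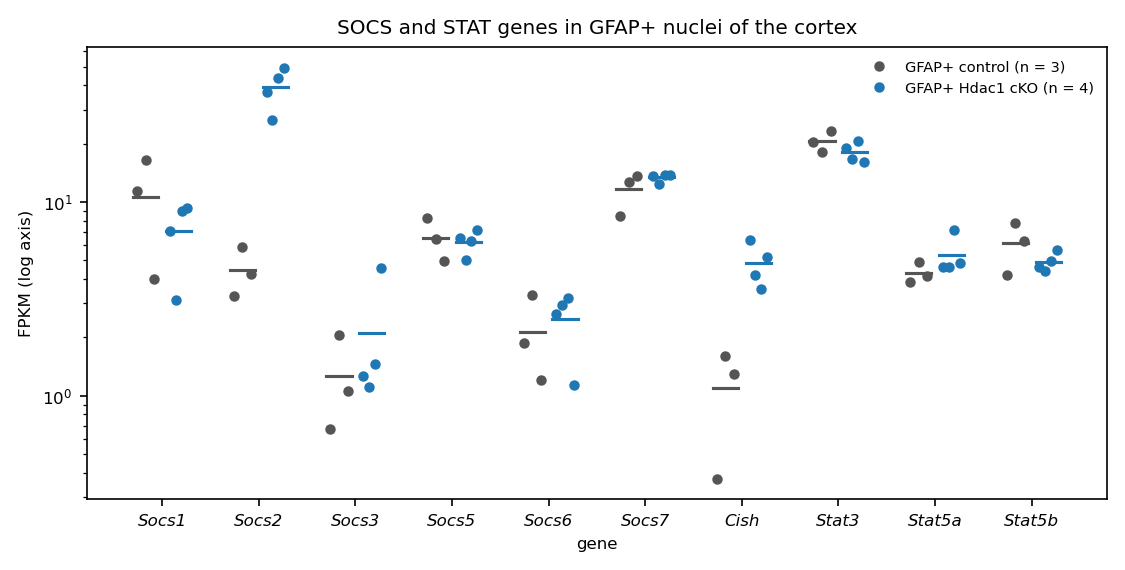
FPKM of the 10 genes (log axis) in GFAP+ nuclei (3 controls, 4 Hdac1 cKO mice), with 1 point a library and a bar at the mean. Socs2 and Cish are the genes whose Hdac1 cKO points all lie above the control points, at 26.4 to 49.5 FPKM and 3.56 to 6.35 FPKM.

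These libraries cover whole transcripts, so FPKM can be compared between genes. In control nuclei Stat3 was the highest member, at 20.6 ± 2.62 FPKM (SD, n = 3), and its range lay above that of Socs7 at 11.6 ± 2.74 FPKM. Below it Socs7, Socs1, Socs5, Stat5b, Socs2 and Stat5a formed a run in which each neighbour overlapped the next, from 11.6 down to 4.31 FPKM. Socs6 (2.13 ± 1.08 FPKM), Socs3 (1.26 ± 0.709 FPKM) and Cish (1.09 ± 0.640 FPKM) were lowest, overlapped in turn, and Socs6 lay below Stat5a. In Hdac1 cKO nuclei the order changed at its top, where Socs2 at 39.1 ± 9.91 FPKM (SD, n = 4) lay above Stat3 at 18.1 ± 2.06 FPKM without overlap. Cish moved from the lowest place to 4.83 ± 1.22 FPKM, where it overlapped Stat5a at 5.31 ± 1.24 FPKM and Stat5b at 4.92 ± 0.554 FPKM. Socs4, a SOCS gene outside the 10, had a mean of 0.381 FPKM in control and 0.443 FPKM in Hdac1 cKO nuclei and missed the filter.

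The astrocyte markers of these nuclei summed to 2748 to 3360 FPKM in controls and 2934 to 3359 FPKM in Hdac1 cKO mice, and all 8 were detected. Gfap was at 72.6 ± 18.2 FPKM in controls and 83.1 ± 7.84 FPKM in Hdac1 cKO mice. Hdac1 itself was at 9.91 to 22.3 FPKM in controls and 5.80 to 11.5 FPKM in Hdac1 cKO mice, so the targeted gene was lower on average but overlapped between the groups. Neuronal markers (8 genes, all detected) summed to 185 to 272 FPKM in controls and 184 to 212 FPKM in Hdac1 cKO mice, and microglial markers (8 genes, all detected) to 54.2 to 96.7 FPKM and 43.7 to 104 FPKM. Oligodendrocyte markers (6 genes, all detected) summed to 631 to 1223 FPKM in controls and 450.0 to 1120 FPKM in Hdac1 cKO mice, and those of oligodendrocyte precursors (4 genes, all detected) to 81.5 to 149 FPKM and 57.8 to 133 FPKM. Endothelial markers (5 genes, all detected) were lower in Hdac1 cKO mice without overlap, at 35.8 to 57.8 FPKM in controls and 23.9 to 33.9 FPKM in Hdac1 cKO mice. Choroid plexus markers (6 genes, all detected) summed to 18.8 to 155 FPKM in controls and 117 to 270 FPKM in Hdac1 cKO mice. The part of the endothelial and choroid plexus cells in the differences of Socs2 and Cish was not tested.

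Another 7 lists of genes of the pathway, 86 genes in all, were read in these nuclei by the same rule of fold and separation. The median difference of the 22 measured receptor genes was -0.03, beside -0.01 over all genes. Of these receptors 1 was higher and none lower, beside 0.730% and 0.836% of all genes. The gene was Il15ra, a receptor chain for interleukin-15, at 24.7 to 27.1 FPKM in controls and 36.8 to 49.9 FPKM in Hdac1 cKO mice. The STAT5 target genes had 2 of 7 lower and none higher, beside 0.836% and 0.730% of all genes, with a median difference of -0.08. Bcl6, which encodes a transcriptional repressor, was at a mean of 14.8 FPKM in controls and 8.19 FPKM in Hdac1 cKO mice. The other was Cdkn1a, which encodes the cell-cycle inhibitor p21, at 7.63 and 4.16 FPKM. The remaining STAT5 target genes overlapped between the groups. Another 3 receptor genes lay apart by less than 1.5-fold. The share of all genes that lay apart at any fold was not counted, so nothing is read from these 3. Ghr, the growth hormone receptor, was lower (20.2 to 22.4 FPKM in controls and 14.1 to 16.0 FPKM in Hdac1 cKO mice), as was Osmr, the oncostatin M receptor (3.36 to 4.27 and 2.52 to 3.11 FPKM), while Il6st, which encodes gp130, was higher (8.37 to 9.82 and 10.4 to 13.2 FPKM). None of the 7 other JAK and STAT genes, 7 ligands, 6 partners of the SOCS box, 10 other negative regulators and 9 STAT3 target genes passed the rule. The partners of the SOCS box, subunits of the ubiquitin ligase that SOCS proteins recruit, overlapped between the groups for each of the 6 genes, with differences from -0.41 to -0.16 and a median of -0.25. The genes named from the lists were named after their values were seen, and no test was run on them.

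The hippocampal libraries captured the 3′ ends of transcripts, and their depth was estimated at 2.24 to 6.86 M fragments (1 M is 1000000), against 6.46 to 9.20 M for the nuclei, from the smallest steps between FPKM values. Hdac1 was at 5.91 to 10.7 FPKM in controls and at 6.10 to 9.64 FPKM in 5XFAD mice, and at 2.36 to 3.03 FPKM in Hdac1 cKO and 1.15 to 2.52 FPKM in compound mice, so both Nestin-Cre groups were below both others without overlap. Choroid plexus markers varied widely, from 590 to 20462 FPKM in sum in controls, from 59.8 to 1633 FPKM in Hdac1 cKO mice, from 56.5 to 7999.8 FPKM in 5XFAD mice and from 62.3 to 14062 FPKM in compound mice. Microglial markers summed to 258 to 291 FPKM in controls, 245 to 277 FPKM in Hdac1 cKO mice, 502 to 656 FPKM in 5XFAD mice and 564 to 1116 FPKM in compound mice. In tissue, fewer cells of a type and less RNA per cell cannot be told apart. Each comparison with controls uses the same 4 control mice.

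Stat3 was higher in every hippocampus that carried 5XFAD than in every one that did not, with or without Hdac1. The gene lies on chr11:100746412-100800854 (minus strand, mm9) and encodes the main transcription factor of the gp130 cytokines. Its level was 3.91, 3.57, 4.87 and 4.64 FPKM in controls and 4.05, 3.75, 3.56, 4.70 and 3.60 FPKM in Hdac1 cKO mice. The 6 5XFAD mice ranged from 5.49 to 8.25 FPKM with a median of 6.58 FPKM, and the compound mice were at 5.78, 6.38, 5.58, 6.99 and 6.24 FPKM. The lowest mouse with 5XFAD, at 5.49 FPKM, was therefore above the highest mouse without it, at 4.87 FPKM. The mean was 6.47 ± 0.984 FPKM (SD, n = 11) with 5XFAD and 4.07 ± 0.526 FPKM (SD, n = 9) without, a ratio of 1.59.

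Between single groups the rise of Stat3 passed the adjusted threshold in 1 comparison when each pair of groups was fitted alone. By limma on log2(FPKM + 1) with Benjamini-Hochberg adjustment over all genes tested, the log2 fold change was 0.55 (SE 0.15, adjusted p = 0.160) in 5XFAD mice against controls and 0.46 (SE 0.13, adjusted p = 0.206) in compound mice against controls. With all 4 groups in one fit the first of these was called as well (0.55, adjusted p = 0.0405), while the second was not (adjusted p = 0.0910). In compound against Hdac1 cKO mice it was 0.55 (SE 0.12, adjusted p = 0.0340). That call was lost when any of 8 of the 10 mice was left out (adjusted p from 0.0356 to 0.103 and log2 fold change from 0.51 to 0.60 over the 10 fits), and it held without Hdac1 cKO mouse 4 or compound mouse 3. A contrast of the 11 mice with 5XFAD against the 9 without, chosen after the values had been seen, gave a log2 fold change of 0.55 (SE 0.09, 95% interval 0.36 to 0.73, adjusted p = 0.000425). It remained called in all 20 fits that left out a mouse (adjusted p from 0.000359 to 0.00191). Loss of Hdac1 did not move Stat3 detectably, with a log2 fold change of -0.09 (SE 0.13, 95% interval -0.38 to 0.20, adjusted p = 0.853) in Hdac1 cKO mice against controls, -0.09 (SE 0.13, adjusted p = 0.894) in compound against 5XFAD mice, and -0.09 (SE 0.09, adjusted p = 0.794) over both backgrounds. Whether Hdac1 loss altered the effect of 5XFAD was tested as an interaction, which was 0.0010 (SE 0.18, 95% interval -0.37 to 0.37, adjusted p = 0.999).

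**Figure D2:**
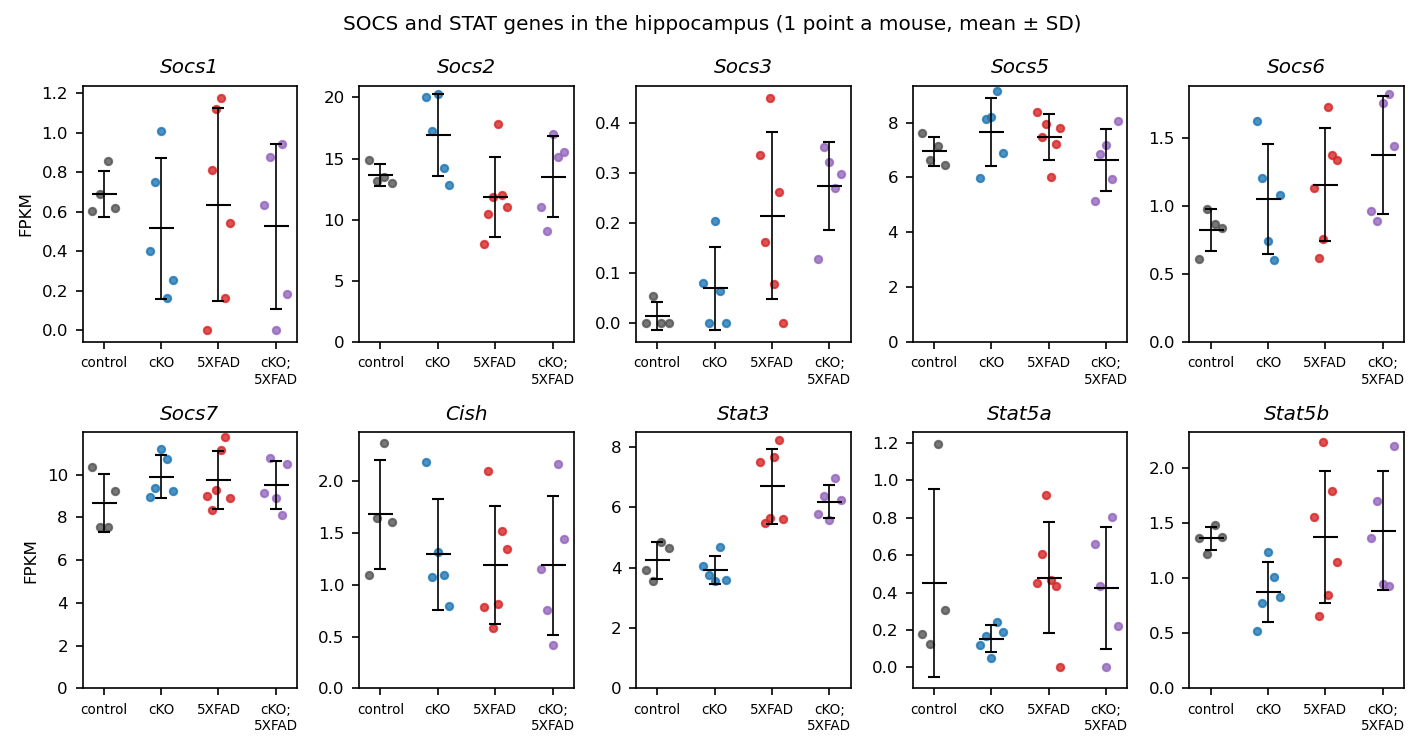
FPKM of the 10 genes in the hippocampus of 4 control, 5 Hdac1 cKO (cKO), 6 5XFAD and 5 compound (cKO; 5XFAD) mice, with 1 point a mouse and bars at the mean ± SD. Only for Stat3 do all 11 mice with 5XFAD (5.49 to 8.25 FPKM) lie above all 9 mice without it (3.56 to 4.87 FPKM).

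Socs3 was the other member that was higher with 5XFAD, at a level close to the limit of these libraries. The gene lies on chr11:117827393-117831361 (minus strand, mm9). With a mean under 0.5 FPKM it was left out of the fits in every comparison, as was Stat5a. An effective length of Socs3 was chosen to bring its FPKM values closest to whole fragments. It was 2.79 kb, beside a longest annotated transcript of 2552 bases. At that length the values lay within 0.0345 of whole fragments, so the counts below rest on this choice. There were 0, 1, 0 and 0 fragments in the 4 controls and 1, 0, 3, 1 and 0 in the Hdac1 cKO mice. The 6 5XFAD mice had 0 to 5 fragments with a median of 3, and the compound mice had 1, 3, 2, 5 and 4. In sum there were 31 fragments in 48.9 M with 5XFAD and 6 in 43.7 M without, a ratio of rates of 4.62 (exact 95% interval 1.90 to 13.5, counting error only). Of the 6 fragments without 5XFAD, 3 came from Hdac1 cKO mouse 3, so the ratio depends on that library. In FPKM the mean was 0.243 ± 0.134 (SD, n = 11) with 5XFAD and 0.0450 ± 0.0681 (SD, n = 9) without, and the groups overlapped.

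A two-sided exact permutation test over mice of log2(FPKM + 1) gave a difference of 0.24 with p = 0.00139 for Socs3 between the 11 mice with 5XFAD and the 9 without. Between single groups the exact p was 0.0159 for compound mice against controls, 0.0159 for compound against Hdac1 cKO mice, 0.0619 for 5XFAD mice against controls, 0.246 for Hdac1 cKO mice against controls and 0.457 for compound against 5XFAD mice. These are 6 of 12 such tests, run on Socs3 and Stat5a after both were seen to miss the filter, and they are not adjusted. Without the filter, limma gave Socs3 an adjusted p of 0.0480 over 19120 genes for mice with against mice without 5XFAD. Between single groups the adjusted p of limma was 0.478 for 5XFAD mice against controls, 0.188 for compound mice against controls and 0.280 for compound against Hdac1 cKO mice.

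**Figure D3:**
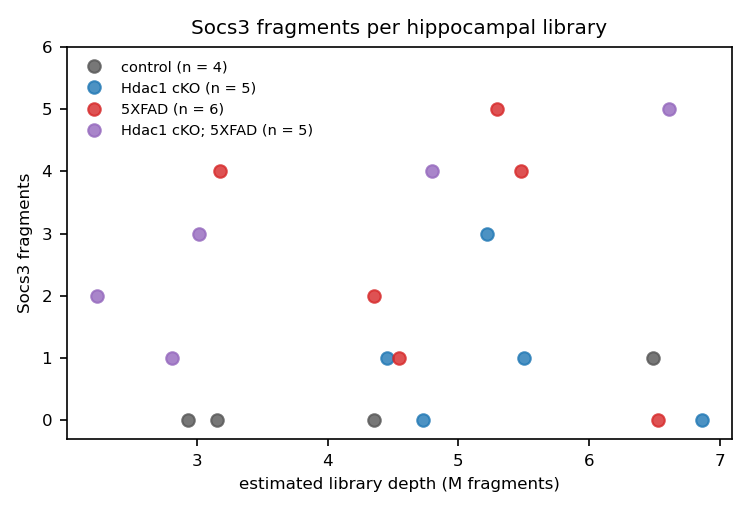
Whole Socs3 fragments in each hippocampal library (vertical axis) against the estimated depth of the library (horizontal axis, 2.24 to 6.86 M fragments), coloured by group. All 9 libraries without 5XFAD have 3 or fewer fragments, while those with 5XFAD reach 5, over the same range of depth.

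Stat5a and Stat5b, near-identical neighbours on chromosome 11 that encode the STAT5 proteins, were low in the hippocampus and did not pass a test. Reads shared between the paralogs could make both values uncertain, and their share was not measured. The last 72 bases of Stat5a overlap those of Stat3 on the other strand, where reads cannot be told apart if strand was not used in counting. Stat5a (chr11:100720665-100746483, plus strand, mm9) was at 0.180, 0.123, 1.19 and 0.307 FPKM in controls and at 0.120, 0.168, 0.0503, 0.241 and 0.192 FPKM in Hdac1 cKO mice. In 5XFAD mice it ranged from 0 to 0.920 FPKM with a median of 0.460 FPKM, and in compound mice from 0 to 0.805 FPKM. All of these groups overlapped. The exact p of its 6 permutation tests lay between 0.119 and 1, with p = 0.204 for mice with against mice without 5XFAD.

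Stat5b (chr11:100642045-100712038, minus strand, mm9) was at 1.36, 1.22, 1.48 and 1.37 FPKM in controls and 0.518, 0.769, 1.23, 1.01 and 0.829 FPKM in Hdac1 cKO mice. A single Hdac1 cKO mouse, at 1.23 FPKM, reached the lowest control, and the log2 fold change was -0.34 (SE 0.16, 95% interval -0.69 to 0.0041, adjusted p = 0.433, limma). Compound mice were at 1.43 ± 0.536 FPKM (SD, n = 5) and 5XFAD mice at 1.37 ± 0.598 FPKM (SD, n = 6). The interaction of Hdac1 loss and 5XFAD for Stat5b was 0.39 (SE 0.26, 95% interval -0.16 to 0.94, adjusted p = 0.674, limma), so a difference between the backgrounds was not shown. For compound against Hdac1 cKO mice the log2 fold change was 0.36 (SE 0.18, adjusted p = 0.545).

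Socs2, which set the GFAP+ nuclei apart, did not pass a test in the hippocampus. It was at 14.9, 13.2, 13.5 and 13.0 FPKM in controls and at 20.1, 17.3, 20.3, 14.2 and 12.8 FPKM in Hdac1 cKO mice. Of the 5 Hdac1 cKO mice 3 were above all controls and 1 was below all of them. The log2 fold change was 0.27 (SE 0.14, 95% interval -0.03 to 0.57, adjusted p = 0.479, limma), beside 2.87 in the nuclei, where region, RNA fraction and library type all differ. The 5XFAD mice ranged from 7.998 to 17.8 FPKM with a median of 11.4 FPKM, and the compound mice were at 11.0, 9.04, 16.97, 15.1 and 15.5 FPKM. Socs2 thus overlapped between all 4 groups. Hdac1 loss over both backgrounds gave 0.23 (SE 0.13, adjusted p = 0.602), compound against 5XFAD mice 0.18 (SE 0.19, adjusted p = 0.848), and 5XFAD over both backgrounds -0.27 (SE 0.13, unadjusted p = 0.0458, adjusted p = 0.405). For 5XFAD mice against controls the value was -0.22 (adjusted p = 0.668) and for compound against Hdac1 cKO mice -0.32 (adjusted p = 0.586).

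Cish was low in the hippocampus, and its groups overlapped widely. It was at 1.10, 1.64, 2.37 and 1.60 FPKM in controls and 2.19, 1.07, 1.31, 1.09 and 0.799 FPKM in Hdac1 cKO mice. The log2 fold change was -0.23 (SE 0.20, 95% interval -0.67 to 0.20, adjusted p = 0.712), the opposite sign to that of the nuclei. With 5XFAD the level was 1.19 ± 0.587 FPKM (SD, n = 11) and without it 1.46 ± 0.535 FPKM (SD, n = 9), which is -0.20 as a log2 fold change (SE 0.16, adjusted p = 0.703). Against controls, it was -0.31 (adjusted p = 0.639) in 5XFAD and -0.33 (adjusted p = 0.697) in compound mice.

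The remaining SOCS genes, which encode adaptors that direct kinases and receptors to degradation, stayed within their spread. Socs5 and Socs7 were well measured, at 5.14 to 9.14 FPKM and 7.54 to 11.8 FPKM over the 20 mice, and their log2 fold changes in Hdac1 cKO mice against controls were 0.11 (SE 0.13) and 0.18 (SE 0.12). Socs1 was at 0.692 ± 0.116 FPKM in controls (SD, n = 4) and 0.517 ± 0.356 FPKM in Hdac1 cKO mice (SD, n = 5), from at most 7 fragments in any of the 20 libraries, with a log2 fold change of -0.19 (SE 0.20). Socs6 had means of 0.823 FPKM in controls, 1.05 FPKM in Hdac1 cKO, 1.16 FPKM in 5XFAD and 1.38 FPKM in compound mice. It changed by 0.37 on the log2 scale (SE 0.19, adjusted p = 0.529) in compound mice against controls and 0.22 (SE 0.12, adjusted p = 0.538) for 5XFAD over both backgrounds. All of these overlapped between the groups.

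**Figure D4:**
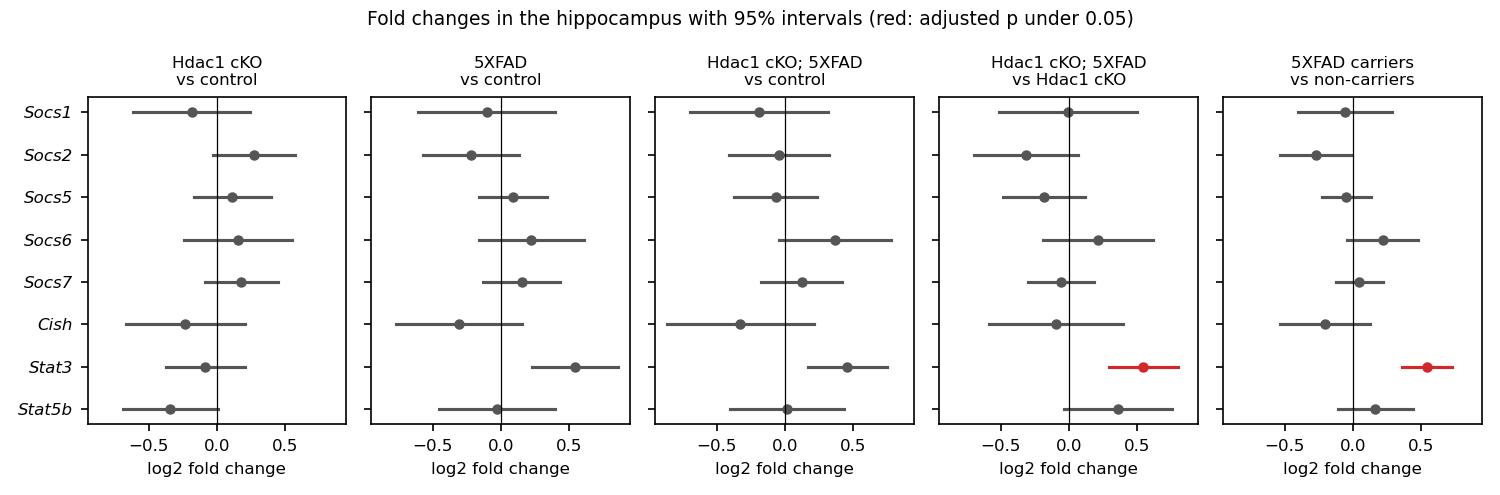
Log2 fold changes (horizontal axis) of the 8 members that passed the filter, with 95% intervals from limma, in 5 hippocampal comparisons. Only Stat3 is drawn in red (adjusted p under 0.05), in compound against Hdac1 cKO mice and in mice with against mice without 5XFAD.

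Counted over the 8 members tested, no member was a differentially expressed gene (DEG, a fold change of at least 1.5 with an unadjusted p under 0.05) in any hippocampal comparison. The share of all genes that were DEGs was 3.36% in Hdac1 cKO mice against controls, 2.95% in 5XFAD mice against controls, 4.24% in compound mice against controls, 1.28% in compound against 5XFAD mice and 3.55% in compound against Hdac1 cKO mice. In the added contrasts it was 2.22% for 5XFAD and 1.33% for Hdac1 loss over both backgrounds. Stat3 missed the fold threshold on this scale, in which the added 1 FPKM lowers a fold. As a ratio of mean FPKM with no pseudocount, the log2 fold change was 0.66 (means of 6.70 and 4.25 FPKM) in 5XFAD mice against controls and 0.66 (6.19 and 3.93 FPKM) in compound against Hdac1 cKO mice, past the threshold in both, and 0.54 in compound mice against controls. With a pseudocount of 0.1 in place of 1 it was a DEG in 5XFAD mice against controls, in compound against Hdac1 cKO mice and for 5XFAD over both backgrounds, at log2 fold changes of 0.64, 0.65 and 0.64.

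At an adjusted p under 0.05 limma called 1 member, Stat3, in compound against Hdac1 cKO mice, where it called 1.49% of all genes, and for 5XFAD over both backgrounds, where it called 2.20%. In the other comparisons it called 0 members. The share of genes called was 0.154% in Hdac1 cKO mice against controls, 0.708% in 5XFAD and 0.662% in compound mice against controls, 0.00698% in compound against 5XFAD mice, 0.00% for the interaction and 0.0278% for Hdac1 loss over both backgrounds. At an unadjusted p under 0.05 Stat3 was the 1 member in 5XFAD mice against controls (10.7% of all genes), in compound mice against controls (10.5%) and in compound against Hdac1 cKO mice (10.3%). For 5XFAD over both backgrounds there were 2 members, Stat3 and Socs2 (11.9% of all genes). There were 0 members in Hdac1 cKO mice against controls (11.7% of all genes), in compound against 5XFAD mice (6.61%), for the interaction (8.97%) and for Hdac1 loss over both backgrounds (9.38%). The median log2 fold change of the 8 members was 0.013 in Hdac1 cKO mice against controls and 0.00012 for 5XFAD over both backgrounds, beside medians of -0.00068 and -0.013 over all genes.

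Genes of the lists around the members were then read in the hippocampus. The lists were chosen with earlier results of these data known, so their counts are a description. STAT3 target genes tested for 5XFAD over both backgrounds numbered 11. Of these, Lcn2, Timp1 and Fgl2 averaged under 0.5 FPKM in the mice without 5XFAD (0.145, 0.225 and 0.360 FPKM). These 3 passed the filter only through the mice with it, and nothing is read from their calls. Of the other 8 genes 4 rose and none fell, where 2.20% of all genes were called in either direction. Gfap, the intermediate filament of astrocytes, was at 23.5 to 26.6 FPKM in controls, 23.4 to 32.0 FPKM in Hdac1 cKO mice, 81.3 to 118 FPKM in 5XFAD mice and 89.0 to 176 FPKM in compound mice (log2 fold change 1.94, SE 0.11). Serpina3n, a protease inhibitor of reactive astrocytes, went from 11.5 ± 2.88 FPKM in controls to 37.7 ± 5.74 FPKM in 5XFAD mice (log2 fold change over both backgrounds 1.82, SE 0.18). Lcn2, which encodes the secreted protein lipocalin-2, went from 0.277 to 2.81 FPKM (1.84, SE 0.22), and Osmr from 0.533 to 2.40 FPKM (1.06, SE 0.11). Vim (1.53, SE 0.21) and Timp1 (2.00, SE 0.36) were also called, Timp1 being named after its value was seen. The other 5 were not called, Fgl2 (0.27), Cebpb (0.15), Cebpd (0.14), Junb (0.05) and Pim1 (-0.01). The 4 called genes above that level without 5XFAD (Gfap, Serpina3n, Osmr and Vim) had an adjusted p between 1.43e-10 and 0.000145 (limma). Under the same filter on the mice compared, the count against Hdac1 cKO mice was 5 of 9 in compound mice (1.49% of all genes), and against controls it was 5 of 12 in 5XFAD (0.708%) and 4 of 12 in compound mice (0.662%). Both counts of compound mice include Lcn2 and that of 5XFAD mice includes Timp1. As these genes were under 0.5 FPKM without 5XFAD, nothing is read from those counts. For Hdac1 loss the count was 0 of 8 tested in Hdac1 cKO mice against controls and 0 of 12 in compound against 5XFAD mice.

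Among the receptors 3 of 22 rose with 5XFAD and none fell, again beside 2.20% of all genes. They were Osmr, Csf3r, the receptor of granulocyte colony-stimulating factor (0.58, SE 0.11, adjusted p = 0.00161), and Csf2rb, the common beta chain (0.52, SE 0.12, adjusted p = 0.0140). Csf2rb averaged 0.409 FPKM without 5XFAD and so also passed the filter through the mice with it, as did 2 receptor genes that were not called, which leaves 2 of 19 receptors. Of 10 other negative regulators the phosphatase genes Ptpn6 (1.36, SE 0.18, adjusted p = 3.46e-05) and Ptprc (0.84, SE 0.12, adjusted p = 0.000145), both expressed by microglia and other immune cells, rose and none fell. Of 7 STAT5 target genes Igf1, the growth factor, rose from 2.14 ± 0.659 FPKM in controls to 5.67 ± 1.86 FPKM in 5XFAD mice (log2 fold change over both backgrounds 1.19, SE 0.16, adjusted p = 4.56e-05). None of 7 other JAK and STAT genes, 4 ligands and 6 SOCS box partners was called, with medians of 0.06, -0.04 and -0.13. The microglial marker sums given above did not overlap between mice with and without 5XFAD. Astrocyte marker sums were 945 to 1074 FPKM without and 1062 to 1290 FPKM with 5XFAD. They include Gfap, itself a called STAT3 target gene, at means of 25.1 FPKM in controls and 97.5 FPKM in 5XFAD mice. The part of either cell type in the values of Stat3, Socs3 and these lists was not tested.

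**Figure D5:**
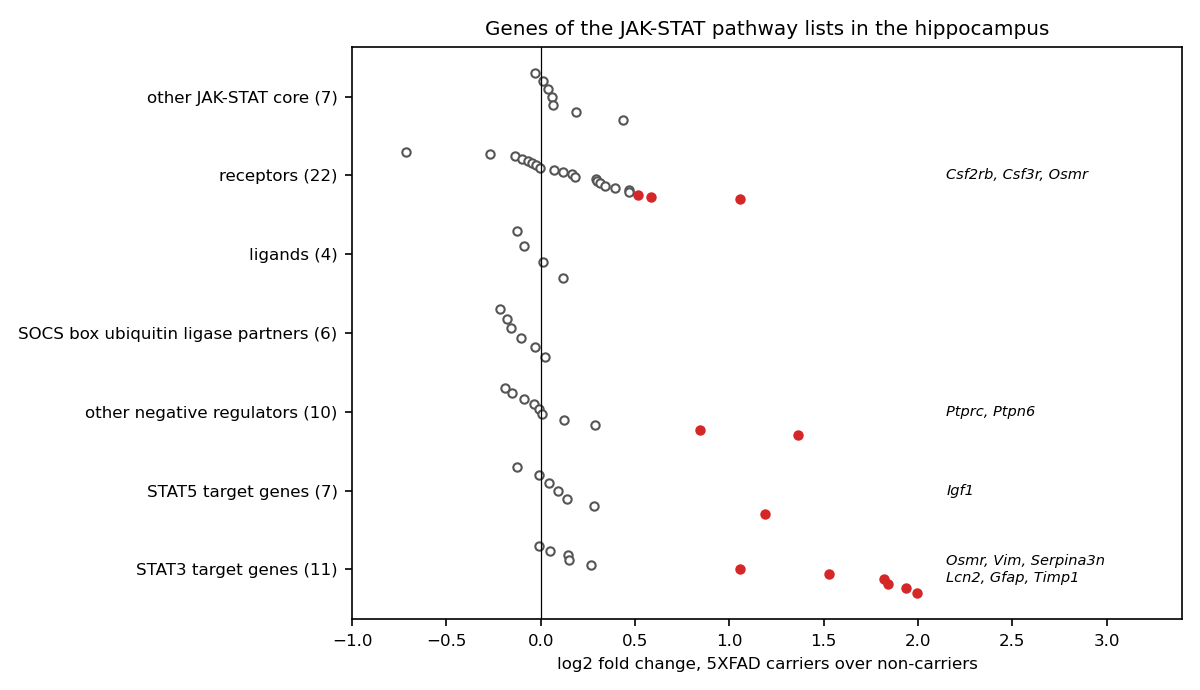
Log2 fold change of each tested gene of the 7 pathway lists (rows, number of genes in parentheses) in the hippocampus, mice with 5XFAD over mice without. Filled red points have an adjusted p under 0.05 and are named at the right in order from left to right. There are none in 3 of the lists. Lcn2 and Timp1 among the STAT3 target genes and Csf2rb among the receptors passed the filter only through the mice with 5XFAD.

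In Hdac1 cKO mice against controls no list gene passed an adjusted p under 0.05. Of 59 list genes tested 3 were DEGs (5.08%, beside 3.36% of all genes), the erythropoietin receptor gene Epor (log2 fold change 0.59, adjusted p = 0.219), the immediate early gene Junb (0.64, adjusted p = 0.155) and the prolactin receptor gene Prlr (-3.07, adjusted p = 0.169). Prlr was at 3.495 to 42.0 FPKM in controls and 0.926 to 2.97 FPKM in Hdac1 cKO mice. The choroid plexus marker sums were also lower in Hdac1 cKO mice, with medians of 15409 FPKM in controls and 109 FPKM in Hdac1 cKO mice. Whether Prlr and these markers vary together from mouse to mouse was not tested. The 3 DEGs were named after their values were seen.

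For each member averaging 1 FPKM or more, the genes most like it over the 20 hippocampi were taken from 12995 genes, by Pearson r of the deviations from the group means, as a description that shares libraries and depth. Socs2 was most like Tpgs2 (r = 0.81), Cib2 (0.79) and Nme1 (0.79), and Stat3 most like Arhgef12 (0.76), Stard8 (0.74) and Zfp212 (0.73). Cish was most like Btd (0.83), Slc48a1 (0.78) and Gfod2 (0.76), and Stat5b most like Dusp15 (0.84), Spata2 (0.74) and Cisd2 (0.74). Socs7 was most like Cspg5 (0.88), Mtor (0.80) and Gab3 (0.78), Socs5 most like Ganab (0.78), Zfp746 (0.71) and Dhx40 (0.71), and Socs6 most like Tpd52l2 (0.79), Map2k6 (0.76) and Acbd7 (0.74). Among the members themselves r was highest between Socs2 and Socs6 (0.55), Socs5 and Stat5b (0.51) and Socs7 and Stat5b (0.47), and lowest between Socs5 and Socs6 (-0.39). No member was among the 3 genes most like another. The r of the 3 genes named for each member are raised by their choice as the highest, and no test was run. Between Socs2 and Cish, which were both higher in the Hdac1 cKO nuclei, r was 0.12 in the hippocampus.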

How the data were processed

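Files of the authors for 27 of the 34 samples listed were used. Not analysed here were 6 ChIP-seq samples and GFAP+ control 2. The deposited values are FPKM for the same 23951 genes. The authors prepared hippocampal libraries by 3′ Digital Gene Expression and nuclear libraries by SMART-Seq, aligned reads with TopHat and computed FPKM with Cufflinks 2.0.0 and mm9 gene annotation. FPKM divides by transcript length, although 3′ libraries read only one end, so levels of different genes were compared in nuclei only. No counts are given in these files. Depth was estimated from the smallest steps between values. Low values were then read as whole fragments, at the effective length that brought them closest to whole numbers.

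Tests ran on log2(FPKM + 1), for genes averaging 0.5 FPKM or more in the samples compared, with limma 3.58.1 (R 4.3.3, trend and robust options) and Benjamini-Hochberg adjustment over all of them. Groups came from the labels, which do not state separate litters or batches. One library was made per mouse. The study's thresholds for DEGs, a 1.5-fold change or more and p under 0.05, were applied to the fold of FPKM + 1 and the unadjusted p of limma, which is not the study's own test. The fit was tested on simulated data. Python 3.11.15 with numpy 2.4.6, pandas 2.3.3 and scipy 1.17.1 was used elsewhere, with mm9 positions from GENCODE.

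The members, the pathway lists and the marker lists were chosen with earlier results of these data known. Genes named were the 10 members, up to 4 called genes per list and comparison with the lowest adjusted p, the 3 genes most like each member, and Hdac1, Gfap and Ttr as checks. Alternatives were a pseudocount of 0.1, no filter or one at 1 FPKM, quantile normalization, median scaling, limma without its options, all 4 groups in one fit, ratios of mean FPKM + 1, a replicate block and leaving out each mouse. The contrasts over both backgrounds, the permutation tests and the ratios of mean FPKM without a pseudocount were added after the data had been seen.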

Additional observations from a re-analysis of the deposited data

Results flagged for a closer look

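In 50 groups of a member by group, 4 held a mouse far from the others by the ratio of its gap to the range of its group, where chance gives about 1 in 20. Socs3 in control hippocampi had a ratio of 1, since 1 control held 1 fragment and the other 3 held none. Socs3 in GFAP+ Hdac1 cKO nuclei had a ratio of 0.898, with 1 library at 4.55 FPKM and the others at 1.11 to 1.46 FPKM. Socs7 in the same group had a ratio of 0.914, with the lowest library at 12.3 FPKM and the highest at 13.8 FPKM. Stat5a there had a ratio of 0.914, with the highest library at 7.16 FPKM and the others at 4.62 to 4.84 FPKM.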

How the results depend on the processing

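On leaving out a library, 2 to 3 members were higher in GFAP+ Hdac1 cKO nuclei with the groups apart. Socs2 (2.71 to 3.05) and Cish (1.23 to 1.70) were so in each case and Socs3 (0.61) without control 3, while Socs1 was lower and apart (-0.95) without control 4. A pseudocount of 0.1 raised the difference of Cish to 2.22. In the hippocampus, the number of members at an adjusted p under 0.05 went from 0 to 1 (Stat3) in 5XFAD mice against controls with all 4 groups in one fit, from 1 to 0 in compound against Hdac1 cKO mice with the replicate block (Stat3 at 0.55, adjusted p 0.104), and from 1 to 2 without the filter for 5XFAD over both backgrounds. Leaving out a mouse gave 0 to 1 members in compound against Hdac1 cKO mice. The number of members past the fold of 1.5 went from 0 to 1 with a pseudocount of 0.1 in 5XFAD mice against controls, in compound against Hdac1 cKO mice and for 5XFAD over both backgrounds. With ratios of mean FPKM without a pseudocount it went to 1 in the first 2 of these, and Stat3 had a ratio of 1.59 in the third. The number was 0 to 1 on leaving out a mouse in the first 2 of these, 1 without control mouse 3, 5XFAD mouse 2, 5XFAD mouse 6 or Hdac1 cKO mouse 4. The cause of these changes was not tested. The interaction of Stat3, at 0.0010, was -0.0220 with quantile normalization, -0.0018 with median scaling, -0.0261 with the replicate block and -0.0550 to 0.0650 on leaving out a mouse. Of 64 fold changes of members, 17 took the other sign under at least 1 alternative; none of these passed the test, and their values were at most 0.10. The exact test of Socs3 for 5XFAD gave p from 0.000260 to 0.00275 over 20 fits without 1 mouse and 0.00151 with a pseudocount of 0.1. Replicate numbers did not pair the mice, with correlations of deviations from -0.11 to 0.09 in 27 pairs of equal number, and the block changed no other call. Depth limits Socs1, Socs3 and Stat5a most, and with 3 control libraries of nuclei the spread there is poorly known.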
